A study of Homo sapiens with 8 samples.

Results

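The RNAPII regions described here are those that lay over a gene's start and were shorter in cells treated with CDDD11-8, a CDK9 inhibitor, than in vehicle-treated cells. Members were chosen by the measured widths themselves. A protein-coding gene was kept when each of the 4 RNAPII ChIP-seq libraries had a region within 300 bp of its transcription start site (TSS), and when the widest such region in each CDDD11-8 library was shorter than in either vehicle library. Of 19794 protein-coding genes, 9701 had a promoter region in all 4 libraries, and 916 of these, 9.44%, narrowed. Another 6250 promoters were wider in both CDDD11-8 libraries, and 2535 did neither. The 916 members lay on 716 distinct regions of vehicle replicate 1, because neighbouring genes can share a region. Every difference between treatments below belongs to the contrast that chose the members, so it is given as a description with no test.

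The libraries came from MDA-MB-453, an established human breast cancer cell line. Cells received vehicle or 600 nM CDDD11-8 (D11-8 in the labels) for 4 h, with 2 biological replicates per treatment from consecutive passages of this 1 line, and no genotype, allele or other agent differed between the groups. RNAPII bound to DNA was recovered with an antibody and sequenced, and the authors called regions in each library against a matched chromatin input. A region is a stretch where the signal stayed above local background without a break, and its width in bp is the main measurement. Regions were found at the promoters of the luminal marker genes GATA3, KRT8, KRT18, KRT19, FOXA1 and SPDEF in every library, and at none of 4 basal and 3 immune markers, while among fibroblast and endothelial markers COL1A1 had one in CDDD11-8 replicate 1.

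The lists differed in ways that bear on width. Vehicle replicates 1 and 2 held 78306 and 57493 regions, and CDDD11-8 replicates 1 and 2 held 25897 and 21842. Summit pileups were whole numbers in 100% of vehicle summits but in 0.323% and 3.36% of CDDD11-8 summits, whose lowest values rose in steps of 0.74 and 0.96, so the CDDD11-8 signal had been scaled down. A scaled-down signal can break a broad, low region into pieces, and the part of this in the narrowing was not tested. With equal numbers of regions per library, 901 promoters narrowed. With regions less than 1 kb apart joined, 1874 did, 740 of them among the 916, and with each width divided by the median promoter width of its library, 3599 did.

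RNAPII starts transcription at the TSS, travels a short way and then pauses. CDK9, the kinase of P-TEFb, phosphorylates the polymerase and the factors that hold it, which releases it into the gene body. At a strongly transcribed gene, released polymerases fill the whole gene and run on beyond its transcription end site (TES) until they leave the DNA, so a single ChIP-seq region can reach from promoter to past the TES. When release is blocked, polymerase is known to remain near the start while the polymerases already released run off.

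The sequences just before the TSS are printed for 6 members, because they are the promoters whose regions shortened most and they show how unlike those promoters were. MSH4 had the largest ratio of vehicle to CDDD11-8 width and the other genes are among the 12 with the largest narrowing in bp. Each line gives the last 100 bases before the TSS, 5′ to 3′ on the gene's strand, in GRCh37 coordinates, and contains no annotated exon. Capitals mark matches to GGGCGG (a GC box), CCAAT or CCGGAAG (an ETS site), on either strand.
HNRNPC, minus strand, chr14:21737654-21737753: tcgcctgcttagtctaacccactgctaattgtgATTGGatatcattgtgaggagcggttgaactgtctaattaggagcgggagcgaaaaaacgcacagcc
MLPH, plus strand, chr2:238395794-238395893: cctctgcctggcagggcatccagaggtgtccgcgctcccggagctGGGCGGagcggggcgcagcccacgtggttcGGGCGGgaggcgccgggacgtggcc
PCBP2, plus strand, chr12:53845786-53845885: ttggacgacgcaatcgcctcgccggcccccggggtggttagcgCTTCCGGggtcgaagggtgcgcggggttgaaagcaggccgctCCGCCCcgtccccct
CLCA2, plus strand, chr1:86889754-86889853: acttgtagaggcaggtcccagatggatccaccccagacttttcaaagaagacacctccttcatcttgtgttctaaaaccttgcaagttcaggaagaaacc
DYNLL1, plus strand, chr12:120907553-120907652: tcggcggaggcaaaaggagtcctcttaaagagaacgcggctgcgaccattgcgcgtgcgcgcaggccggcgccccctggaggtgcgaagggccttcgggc
MSH4, plus strand, chr1:76262467-76262566: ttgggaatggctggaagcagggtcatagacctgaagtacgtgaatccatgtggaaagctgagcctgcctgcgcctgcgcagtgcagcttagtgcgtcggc

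MLPH and PCBP2 had GC-rich stretches, with 78% and 73% G or C, whereas CLCA2, an epithelial gene, had 46%. Over 300 bases on each side of the TSS, the ratio of observed to expected CpG was 0 for CLCA2, against a median of 0.807 over the 916 members and 0.834 over all 9701 promoters. Base content of the members was otherwise near that of all promoters, with a median GC of 64% against 65.7%. In the same 100-base window, TATAAA on the sense strand was present in 28 members (3.06%) and in 1.48% of all promoters, but among promoters with vehicle regions of at least 10 kb it was present in 4.88% of those that narrowed and 7.02% of those that did not. CCAAT on either strand was present in 24.9% against 22.9%, GGGCGG in 49.1% against 53.4%, CCGGAAG in 11.1% against 13.1%, and an E2F-type site (TTCGCGC or TTGGCGC) in 3.49% against 3.74%. No searched motif contains another, although ATTGG, the reverse of CCAAT, can share letters with TTGGCGC. A match describes the sequence only.

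Narrowed promoters had been far wider than other promoters in vehicle. The median member region was 11078 bp in vehicle replicate 1 and 9584 bp in vehicle replicate 2, and it was 6329.5 bp and 5495 bp in CDDD11-8 replicates 1 and 2. The mean of the library medians fell from 10331 ± 1056 bp to 5912 ± 590.1 bp (SD, n = 2 libraries each). Over all 9701 promoters the medians went the other way, from 3038 and 3139 bp in vehicle to 4921 and 4379 bp in CDDD11-8. With CDDD11-8 the members' medians lay nearer those of the other 8785 promoters, which were 4827 and 4312 bp. Replicate widths of a member were mostly alike, being within 1.5 times of each other in 81.7% of members for vehicle and 86.8% for CDDD11-8.

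**Figure D1:**
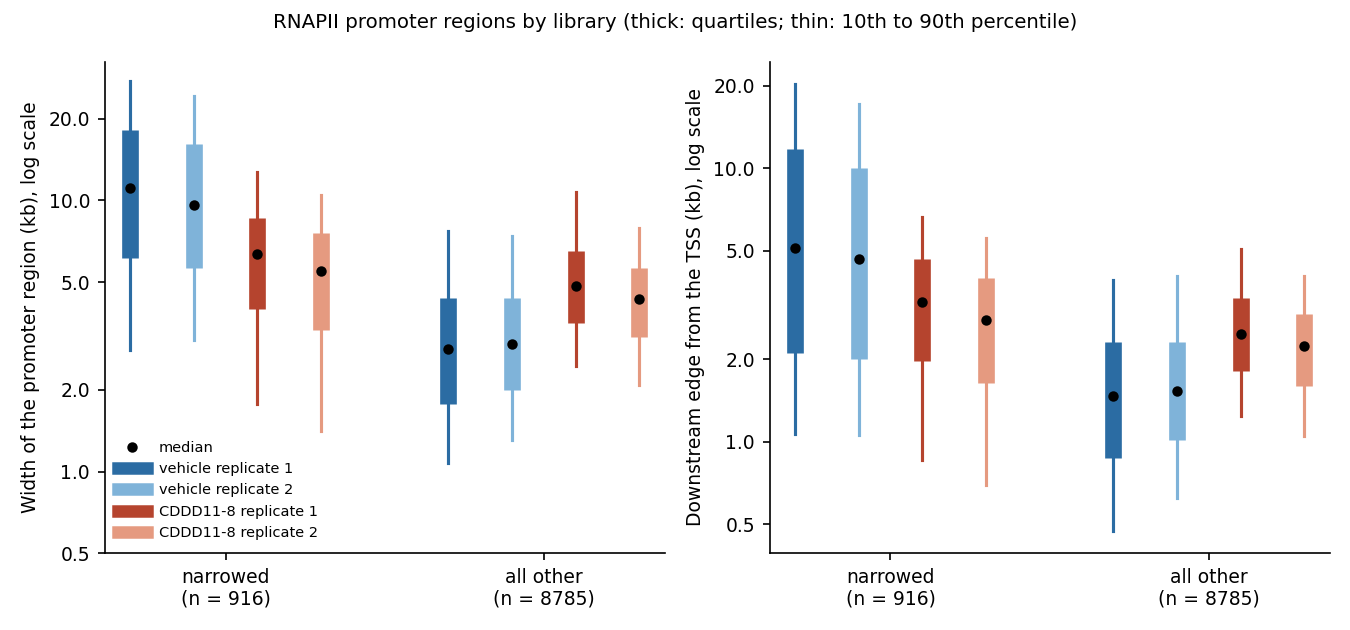
Width of the promoter region (left) and distance from the TSS to its downstream edge (right), in kb on log axes, for the narrowed promoters and all other promoters in each library; points are medians, thick bars quartiles and thin bars the 10th to 90th percentile. Narrowed promoters had vehicle medians of 11078 and 9584 bp, against 2837 and 2948 bp for the others, whereas the CDDD11-8 medians of both groups lay between 4312 and 6329.5 bp.

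Most narrowings were modest and a few were very large. The gap between the smaller vehicle width and the larger CDDD11-8 width had a median of 1601 bp, with quartiles of 415 and 5195 bp. It was at least 10000 bp in 115 members (12.6%) and under 10% of the smaller vehicle width in 269 (29.4%). The smaller vehicle width was at least 2 times the larger CDDD11-8 width in 183 members (20%) and at least 4 times in 33 (3.6%). At the edge of the rule, SCCPDH was kept with 3949 and 4436 bp in vehicle against 3947 and 3363 bp in CDDD11-8, and LPO, the lactoperoxidase gene, with 2122 and 1638 bp against 1571 and 1636 bp. Just outside, SYTL1 had 3318 and 3119 bp against 3119 and 839 bp, UQCR11 had 7878 and 6985 bp against 6985 and 5914 bp, and ATG10 had 3172 and 3097 bp against 3099 and 2835 bp. Members this close to the line were separated from the others by no more than 2 bp.

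In vehicle, nearly every member region ran into the gene body. The region ended more than 300 bp downstream of the TSS in both vehicle libraries in 900 of 916 members (98.3%, 95% Wilson interval 97.2 to 98.9%, counting error only), against 93.6% of all promoters. Longer reaches differed more between members and all promoters, but vehicle width is part of the rule that chose the members. A reach over 5000 bp in both vehicle libraries was found in 44.9% of members and 9.07% of all promoters, and a reach over 10000 bp in 23% and 4.33%. With CDDD11-8, 12.6% of members still reached over 5000 bp in both libraries and 2.29% over 10000 bp. In 327 members (35.7%) the vehicle region ran from the promoter to the TES or beyond in both libraries, against 8.49% of all promoters. Among promoters with vehicle regions of at least 10 kb in both libraries, 58.8% of those that narrowed and 66.4% of those that did not had this reach. In 150 members (16.4%) the region reached the TES in both vehicle libraries and in neither CDDD11-8 library, where 1.58% of all promoters did. These 150 were nearly all of the 153 such promoters. A region that stops reaching the TES has nearly always become shorter, as the rule asks.

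The lost bases lay mainly downstream of the TSS. The downstream edge moved nearer the TSS in both CDDD11-8 libraries in 610 members (66.6%), against 9.79% of all promoters, and the upstream edge did so in 439 (47.9%), against 7.17%. A region that became shorter has nearly always drawn in at an edge, so these differences from all promoters follow from the rule. By class, 449 members drew in at the downstream edge only, 161 at both, 278 at the upstream edge only and 28 at neither edge consistently. Of all bases that were in the vehicle region and outside the CDDD11-8 promoter region, 68.8% ± 0.978 (SD, n = 2 same-numbered library pairs) were downstream. These comprised 36.9% ± 1.68 inside the gene and 32% ± 0.7 past its TES, and the other 31.2% lay upstream. For the 300 members whose gene was 1 kb or longer and 3 kb or more from any other protein-coding gene, 82.8% ± 1.75 of lost bases were downstream.

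**Figure D2:**
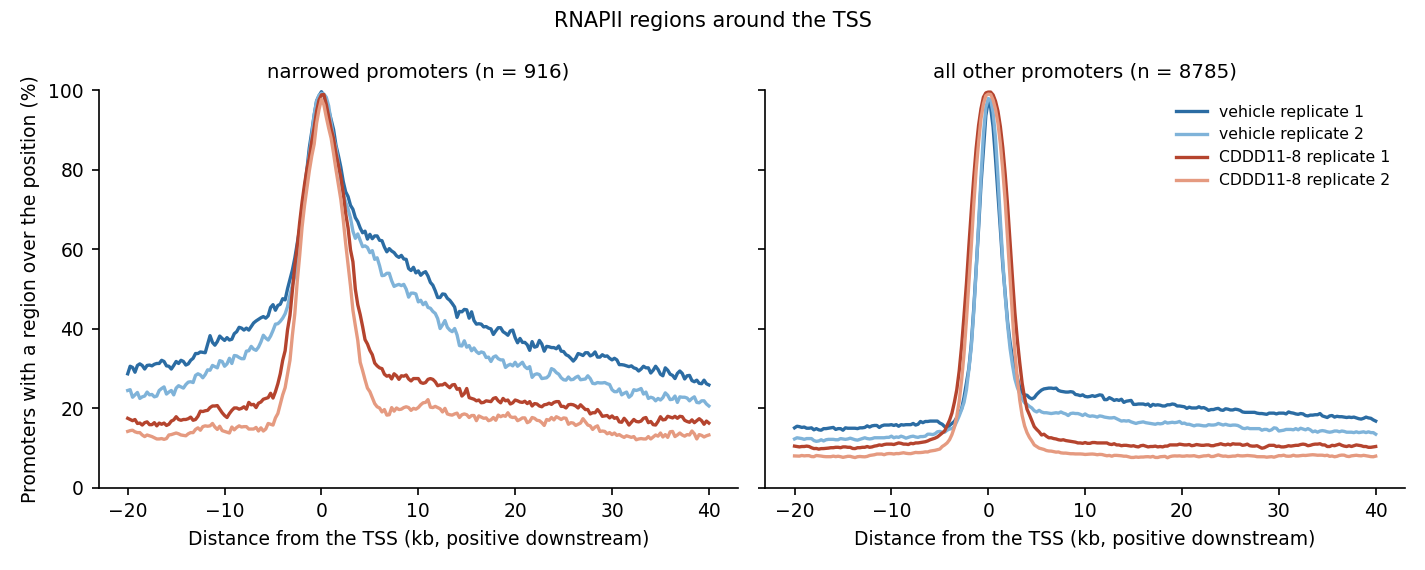
Percent of narrowed promoters (left) and of all other promoters (right) with an RNAPII region of any kind over each position, from 20 kb before to 40 kb after the TSS, 1 line per library. At 10 kb downstream 500 and 429 of the 916 narrowed promoters were covered with vehicle and 252 and 185 with CDDD11-8, while at 2 kb the counts were 739 and 708 against 717 and 665.

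Not all lost bases were left without a region. On average 39.7% ± 2.33 of them (n = 2 same-numbered pairs) were still under some other CDDD11-8 region, which can be a piece of the same region or that of a neighbouring gene. For the 300 members 3 kb or more from any other protein-coding gene the share was 32.8% ± 1.74. The vehicle replicate 1 region overlapped 1 region of CDDD11-8 replicate 1 in 361 members, 2 in 209 and 3 or more in 346. The second pair gave 400, 209 and 306. Vehicle summits outside the CDDD11-8 promoter region were only somewhat weaker than those inside, with a median fold enrichment over background of 5.44 against 5.93 in replicate 1 and 4.67 against 6.26 in replicate 2. Percent coverage of the gene body, taken from 300 bp into the gene until 3 kb beyond its end, counts all regions, so that a break takes away only the bases of the gap. In the same 300 members its medians were 86.4% and 71.7% in vehicle and 22.8% and 16.4% in CDDD11-8. It was lower in both CDDD11-8 libraries in 230 of them (76.7%), against 44.9% of all 4010 such genes.

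The highest fold enrichment, taken anywhere within the region, was higher in both CDDD11-8 libraries in 652 members (71.2%), below the 88% of all promoters. Its medians over the members were 10.2 and 11.7 in vehicle and 28.1 and 19.2 in CDDD11-8, and fold enrichment is relative to each library's own background. The strongest summit of the region sat nearer the TSS with CDDD11-8 than with vehicle, at a distance near that of promoters in general. A shorter region over the TSS leaves less room for a distant summit, so this shift can follow from the rule. The strongest summit was within 1000 bp of the TSS in 49.7% and 74.8% of members for vehicle, and in 86.7% and 87.7% for CDDD11-8. Over all 9701 promoters these shares were 80.8% and 89.1% for vehicle, and 89.9% and 91% for CDDD11-8. It lay more than 1000 bp into the gene in 31.9% and 15.8% of members for vehicle, and in 6.99% and 6.88% for CDDD11-8.

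HNRNPC showed the largest narrowing in bp. It encodes an hnRNP protein that coats nascent pre-mRNA, and its gene spans 60359 bp (chr14:21677295-21737653, minus strand). The promoter region was 76023 and 75891 bp wide in vehicle and 7806 and 9627 bp wide in CDDD11-8. In vehicle replicate 1 it covered chr14:21663449-21739471, which is every exon and intron of the gene and 13846 bp past the TES, and in replicate 2 it ended 13813 bp past the TES. With CDDD11-8 the region ended 5364 and 7217 bp after the TSS. The rest was broken up and not empty, since 25 regions of CDDD11-8 replicate 1 lay within the vehicle replicate 1 region and covered 80.3% of it, and 30 regions of CDDD11-8 replicate 2 covered 70.3% of that of vehicle replicate 2. The highest fold enrichment rose from 27.7 and 20.1 to 45.6 and 47.3.

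Of the other genes among the 12 largest narrowings, PCBP2, a poly(C)-binding protein gene, went from 47620 and 49338 bp to 6394 and 6721 bp. Its body was covered completely in both vehicle libraries and to 39.2% and 32.4% with CDDD11-8, so more of its body was left outside any called region than at HNRNPC, where 76.7% and 65.2% stayed covered. RBM39, a splicing factor gene that shares its vehicle region with NFS1 and ROMO1, went from 47475 and 47183 bp to 7629 and 7791 bp, but 82.4% and 69.1% of its body stayed covered. RBM4, which shares a region with RBM4B, went from 56291 and 66349 bp to 21253 and 9209 bp. EWSR1, an RNA-binding protein gene next to RHBDD3, went from 46840 and 39571 bp to 8001 and 7179 bp, and its coverage from complete to 38.1% and 29.1%. RBM4 kept 96.4% and 83.3% of its body covered. These genes had alike widths in all libraries of a treatment apart from RBM4, yet they differed in how much of the body stayed under other regions.

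MLPH, which encodes the melanosome transport adaptor melanophilin, went from 62495 and 61833 bp to 16449 and 11977 bp, with 92.7% and 83.3% of its body still covered. EHF, an epithelial ETS transcription factor gene, went from 48976 and 49041 bp to 8985 and 9067 bp. Its coverage fell from complete to 40.8% and 33.1%. CLCA2, a gene of epithelial cells, went from 41184 and 40309 bp to 6029 and 9171 bp, and it was the 1 gene of the 12 whose highest fold enrichment fell in every comparison of libraries, from 23.4 and 30.3 in vehicle to 14.6 and 17.6. TRIM13, a ubiquitin ligase gene, went from 72075 and 50619 bp to 10678 and 5021 bp.

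ASPH and TRPS1 were the 2 longest genes of the 12 and the 2 whose vehicle replicates disagreed most. ASPH, a hydroxylase gene of 214037 bp, had 112605 and 38749 bp in vehicle and 8224 and 7987 bp in CDDD11-8. TRPS1, a luminal transcription factor gene of 260479 bp, had 174854 and 41419 bp in vehicle and 11013 and 11127 bp in CDDD11-8. A single break decides such a width, and coverage was steadier between replicates. It was 70.2% and 71.2% for ASPH and 99.7% and 98.5% for TRPS1 in vehicle, and below 5% for both genes in both CDDD11-8 libraries (4.34% and 4.45%, and 4.63% and 4.75%).

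Not every narrowing belonged to the gene whose promoter was counted. DYNLL1, a dynein light chain gene, went from 34880 and 34977 bp to 6544 and 4997 bp, but its vehicle region reached 32589 and 29650 bp upstream over TRIAP1 and GATC, and only 5.17% of its lost bases lay in DYNLL1. MSH4, a meiotic gene, had the largest ratio (13.3), from 15531 and 15611 bp to 1171 and 1147 bp. Its vehicle region reached 12567 and 12614 bp upstream over RABGGTB, a gene on the same strand that held 61.3% of the lost bases. IFI35, an interferon-induced gene next to RPL27, went from 12855 and 12976 bp to 1243 and 747 bp with none of the lost bases in IFI35. CDH24, a cadherin gene, went from 18850 and 17262 bp to 2656 and 1256 bp, and 96.5% of the lost bases lay in ACIN1 on the same strand. IL34, a cytokine gene, went from 8065 and 8145 bp to 1371 and 293 bp, with 73.9% in SF3B3. In each of these 5 genes, at most 15.1% of the lost bases lay in the gene counted.

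Other genes with large ratios differed in where the bases were lost. LCAT, which encodes a plasma cholesterol-esterifying enzyme and shares its vehicle region with PSMB10, went from 14044 and 16339 bp to 1160 and 491 bp. SPATA24 went from 20164 and 22080 bp to 1412 and 1603 bp, and ADM5 from 4775 and 4295 bp to 419 and 289 bp. MNS1, a cilium gene, had 45108 and 11247 bp in vehicle and 1177 and 1424 bp in CDDD11-8, with 84.7% of its lost bases in MNS1. HNRNPC and EHF were also among the 12 largest ratios, with 79.6% and 86.6% of lost bases in the gene itself. At MSH4, SPATA24, LCAT, IFI35, ADM5, MNS1 and IL34 the highest fold enrichment in each CDDD11-8 library was below that in either vehicle library, for example 5.31 and 5.01 against 27.2 and 18.2 at MSH4. The vehicle maximum was taken over the longer region, which at each of these genes also covered bases of another protein-coding gene. It may therefore not be that of the named promoter.

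Over all members, 36.9% of lost bases lay in the gene itself, 40% in another protein-coding gene and 23.1% in neither. Members that drew in at the downstream edge only had most of their lost bases in their own gene in 261 of 449 cases (58.1%). Those that drew in at the upstream edge only had most of them in another gene in 160 of 278 (57.6%), and that gene was on the same strand in 109. The vehicle region held the TSS of another protein-coding gene in both libraries in 358 members (39.1%), against 31% of all promoters. Members were chosen partly by vehicle width, and among vehicle regions of at least 10 kb the order was the opposite. There, another TSS lay inside the vehicle replicate 1 region in 61.2% of promoters that narrowed and 83.8% of those that did not. In 62 members (6.77%) another TSS was inside the region in both vehicle libraries and in neither CDDD11-8 library. These 62 were all such cases among the 9701 promoters (0.639%), but a region that loses a TSS has nearly always become shorter, as the rule asks.

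The narrowed genes were short. Their median length was 12643 bp, against 27790 bp for all promoters, and their median exon number 7 against 9. By chromosome the narrowed share ran from 3.91% of 128 promoters on chromosome 18 to 15.6% of 231 on chromosome 22. The share that narrowed was 20.7% for genes of 2000 to 5000 bp and 3.72% for genes over 100000 bp. Width in vehicle moved with this, and with the rule. Of 973 promoters with vehicle widths up to 1018 bp, 1.44% narrowed, and of 970 with widths from 9068 bp upward, 47.2%. Among promoters with vehicle regions of at least 10 kb in both libraries, 410 of 866 narrowed (47.3%).

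At vehicle widths of 10 kb or more the order by gene length was the opposite. Among vehicle widths of 10 to 20 kb, 33.6% of 220 promoters of genes up to 5 kb narrowed, 48.5% of 309 for genes of 5 to 20 kb, 60.3% of 68 for genes of 20 to 50 kb and 64.4% of 45 for longer genes. Among widths of 20 kb or more the shares were 28.6% of 70, 57% of 100, 69% of 42 and 83.3% of 12. Below 10 kb the shortest genes kept the highest share. From the shortest to the longest genes it went from 30.1% to 24.5% at vehicle widths of 5 to 10 kb, from 7.86% to 2.21% at 2 to 5 kb and from 3.97% to 1.73% under 2 kb. The 410 broad promoters that narrowed had a median gene length of 9814 bp and another TSS inside the vehicle replicate 1 region in 61.2% of cases, while the 456 that did not had 5534 bp and 83.8%.

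**Figure D3:**
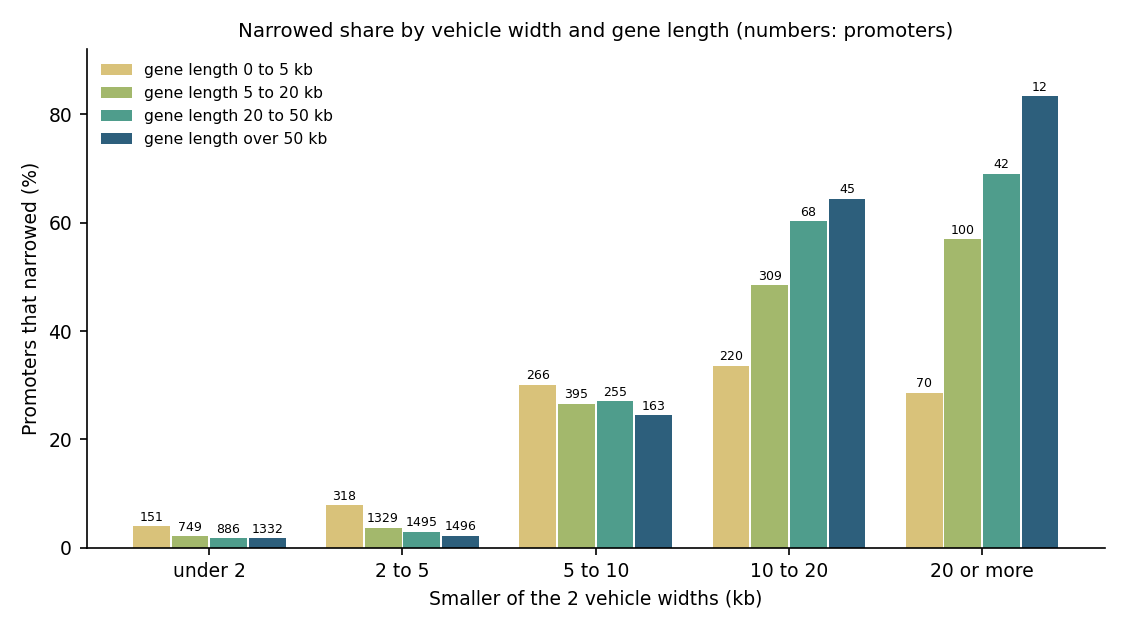
Percent of promoters that narrowed, by the smaller vehicle width in kb (groups of bars) and by gene length (colours), with the number of promoters above each bar. From 10 kb of vehicle width upward the share rose with gene length, from 33.6% to 64.4% and from 28.6% to 83.3%, and the last bar rests on 12 promoters.

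The narrowed share differed widely among gene lists, which were chosen with results of these data known. Of 74 cytosolic ribosomal protein genes with a region in all libraries, 37 narrowed (50%) and 17 widened, against 9.44% narrowed over all promoters. Among all promoters with vehicle regions of at least 10 kb in both libraries, the narrowed share was already 47.3%. Ribosomal protein promoters that did not narrow were also broad in vehicle, with medians of 10263 and 11490 bp. The 37 that narrowed had median widths of 15815 and 12837 bp in vehicle and 7082 and 6582 bp in CDDD11-8, on genes of median length 5207 bp. Highest fold enrichment was higher in both CDDD11-8 libraries in 35 of 37, near the 32 of 37 among ribosomal protein promoters that did not narrow and the 88% of all promoters. RPS3, a small-subunit protein gene of 22750 bp, went from 35617 and 34533 bp, ending 11349 and 10303 bp past the TES, to 6755 and 7571 bp. RPS3A went from 17804 and 17197 bp to 6828 and 4474 bp. RPS25 went from 23975 and 22709 bp to 8373 and 7898 bp, with none of the lost bases in RPS25, and RPL31 from 29430 and 19591 bp to 6810 and 6015 bp.

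Of 27 glycolysis, cytoskeleton and translation genes 10 narrowed (37%). ENO1, the glycolytic enolase gene, went from 26042 and 27510 bp to 9195 and 8630 bp, and NCL, the nucleolin gene, from 17684 and 17852 bp to 7885 and 6338 bp. PPIA, a prolyl isomerase gene, went from 13486 and 13504 bp to 6937 and 7102 bp, and EEF1G, a translation elongation factor gene, from 25186 and 14333 bp to 8151 and 6676 bp. In all 4 only the downstream edge drew in consistently. Some genes of this list and the ribosomal protein list have near-identical copies elsewhere in the genome, and how reads were shared among them is not given in the sources used here.

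Of 26 SR and hnRNP splicing factor genes 9 narrowed (34.6%). Beside HNRNPC, HNRNPU went from 34262 and 33408 bp to 10735 and 8173 bp, TRA2B from 31770 and 30888 bp to 7707 and 9566 bp, and SRSF3 from 29743 and 26200 bp to 9020 and 8420 bp. At HNRNPU 96.4% and 93.5% of the vehicle region was still under CDDD11-8 regions, against 56.9% and 53.7% at TRA2B. Of the bases lost at HNRNPU, 36.8% lay in COX20 on the opposite strand. Of 22 heat shock and chaperone genes 6 narrowed (27.3%) and 13 widened. HSPA8, the constitutive HSP70 gene, went from 14295 and 13489 bp to 8930 and 8382 bp, CANX, the calnexin gene, from 14805 and 11297 bp to 6346 and 7539 bp, and HSPA5, the endoplasmic reticulum HSP70 gene, from 11008 and 9982 bp to 6463 and 7633 bp. HSPB1, a small heat shock protein gene, went from 3288 and 3516 bp to 2975 and 1760 bp. The stress-induced HSPA1A and HSPA1B, which are near-identical and share 1 region, had 36299 and 36853 bp against 36112 and 26468 bp, a gap of 187 bp. This pair was named after its values were seen.

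Of 27 luminal lineage genes 6 narrowed (22.2%) and 8 widened. EHF and TRPS1 are described above. TFAP2B, an AP-2 transcription factor gene, went from 37774 and 35964 bp to 13284 and 11478 bp, and TFAP2A, its relative, from 28969 and 28731 bp to 20894 and 19899 bp. Both vehicle regions covered the whole gene and ended about as far past the TES in each replicate, 4935 and 4996 bp for TFAP2B and 5415 and 4978 bp for TFAP2A. KRT19, a luminal keratin gene, had 11804 and 10519 bp against 9858 and 9766 bp, with 90.2% of the lost bases in KRT15 beyond its TES. XBP1, a secretory pathway transcription factor gene, had 18142 and 17610 bp against 17087 and 17399 bp, a small gap at the upstream edge.

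Of 30 immediate-early and short-lived transcripts 4 narrowed (13.3%) and 18 widened. IER3 had 31711 and 9496 bp in vehicle and 7915 and 8092 bp in CDDD11-8, BTG2 9173 and 8606 bp against 7264 and 4879 bp, JUND 12590 and 7915 bp against 6222 and 7280 bp, and ZFP36L1 15518 and 14602 bp against 14129 and 14186 bp. Only BTG2, an antiproliferative gene, had its lost bases partly in its own body, 17.6%, and those of the other 3 lay outside the gene. The body of IER3 and of ZFP36L1 was fully covered in all 4 libraries.

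The lists of transcription regulators, cell cycle genes and histones had shares near the 9.44% of all promoters. Only the zinc finger list lay well below it. Of 40 transcription elongation and transcriptional CDK genes 3 narrowed (7.5%) and 30 widened. HEXIM1 and HEXIM2, which encode inhibitors of P-TEFb, are neighbours and shared 1 vehicle region of 19688 and 21532 bp, and this split into regions of 9176 and 9862 bp at HEXIM1 and of 7363 and 7456 bp at HEXIM2. PAF1, an elongation factor gene, had 12094 and 10718 bp against 9210 and 7632 bp. CDK9 itself widened, with 2297 and 4586 bp in vehicle and 5633 and 5440 bp in CDDD11-8. Of 41 mitosis and E2F target genes 3 narrowed (7.32%). The DNA synthesis genes TK1 and RRM2 went from 22499 and 21844 bp to 5715 and 4177 bp and from 24937 and 22691 bp to 8621 and 8448 bp, and MCM5, a replicative helicase subunit gene, had 41761 and 6292 bp against 5629 and 3917 bp.

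Proteasome subunit genes narrowed in 6 of 32 cases (18.8%), with PSMB10 going from 14044 and 16339 bp to 5161 and 5733 bp and PSMD4 from 10236 and 7654 bp to 5481 and 4676 bp. Oxidative phosphorylation genes narrowed in 11 of 71 (15.5%), with ATP5F1B, an ATP synthase subunit gene, going from 19114 and 20413 bp to 8853 and 9903 bp and COX5B, a cytochrome oxidase subunit gene, from 14892 and 11911 bp to 6972 and 6667 bp. Replication-dependent histone genes narrowed in 5 of 60 (8.33%), with H1-3 at 21717 and 16012 bp against 14294 and 7571 bp and H1-2 at 10343 and 9191 bp against 7783 and 8283 bp. ZNF genes narrowed in 14 of 351 (3.99%), the lowest share of the lists, with ZNF688 and ZNF785 on 1 shared vehicle region of 24667 and 22530 bp. At PSMB10, COX5B, H1-3, H1-2 and ZNF688 none of the lost bases lay in the named gene. At PSMD4, ATP5F1B and ZNF785 the share in the named gene was 22.85%, 18.07% and 20.21%, and at ATP5F1B 66.9% lay in BAZ2A. Of the other genes named by rule, MCL1 widened from 24862 and 20154 bp to 41001 and 38028 bp and CENPF from 816 and 1766 bp to 6064 and 3375 bp. MYC had 4658 and 4209 bp against 5383 and 4191 bp and E2F2 6658 and 6641 bp against 7741 and 6551 bp, and neither met the rule in either direction.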

How the data were processed

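RNAPII ChIP-seq of MDA-MB-453 cells gave 4 ChIP libraries, 2 with vehicle and 2 with CDDD11-8, and 4 inputs, which were not analysed here as samples. Paired-end reads were aligned by the authors to GRCh37 (hg19) with Bowtie2, and peaks were called per library with MACS2 at default settings against a paired input, without pooling replicates. The deposited pileup is a signal at each summit, the deposited fold enrichment is a ratio to local background, and the deposited q-value is on the −log10 scale, with a minimum of 2 in each list. The deposited region length is in bp. The p-value columns were not used. The lists hold no read totals, so depth is unknown here, and a deeper or less scaled library can give longer and more regions.

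Rows sharing a start and end were joined into 1 region. Genes were protein-coding genes of GENCODE release 44 mapped to GRCh37, by their longest isoform. Members and gene lists were chosen with earlier results of these data known, so no test was run. Same-numbered libraries share only a number. Wilson intervals cover counting error only, and replicates from passages of 1 line measure that spread only. Named genes were the first 12 by narrowing in bp and by ratio (1 per vehicle region), the 3 members and 3 other promoters nearest the rule, all luminal and immediate-early members, 2 to 4 of each other list with the largest narrowing, and CDK9, MYC, MCL1, CENPF and E2F2. Some items that this rule names are not reported here. The rule and the split of lost bases were tested on simulated regions. Scripts ran on Python 3.11.15 with pandas 2.3.3 and numpy 2.4.6, figures were drawn with matplotlib 3.10.9, and 16 alternatives were tried.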

Additional observations from a re-analysis of the deposited data

How the results depend on the processing

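Joining regions within 1 kb gave 1874 narrowed promoters, of which 740 were among the 916, with a vehicle median width of 15530 bp, a median gene length of 15523 bp, 63.4% of lost bases downstream, 27.8% still under another CDDD11-8 region and 99.4% of vehicle regions running into the gene body. Genes 1 kb or longer and 3 kb from other protein-coding genes gave 300, with 9074 bp, 14070 bp, 82.8% and 32.8% in the same order without the last. Dividing each width by its library's median gave 3599, with 5077 bp, 19280 bp and 67.1% downstream, so the number depends most on scale. Narrowing by at least 10% gave a width of 12056 bp, the canonical isoform 72.2% downstream and a gene length of 11196 bp, counting shared regions once a gene length of 16277 bp and 35.8% still covered, and a −log10 q-value of at least 5 gave 33.9% still covered. Leaving out vehicle replicate 1 gave 1473 promoters, vehicle replicate 2 1526, CDDD11-8 replicate 1 1662 and CDDD11-8 replicate 2 1065, with widths of 8155 to 9512 bp, gene lengths of 12737 to 14590 bp, 65.3 to 69.9% downstream, 38.4 to 42.2% still covered and 96.4 to 98.7% running into the gene body. Each of these sets had to hold the 916, because leaving out a library only loosens the rule. The replicate block, narrower within each same-numbered pair, gave 1112 promoters, and by its looser rule it had to include the 916. The numbers were not shown to pair the libraries, since replicate differences in log2 width correlated at -0.016 across promoters between treatments. Narrowing by at least 10% gave 647 promoters. All other values stayed within a limit set for each. For width and the shares of lost bases the limit was the SD between libraries or library pairs. For the number of promoters it was a factor of 1.5. For gene length and the share running into the gene body it was a 95% interval over members. Widths depend on unknown depth and scaling, and 2 libraries per treatment allow no firm error.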
